A study of Mus musculus with 2 samples.

Results

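The Arp2/3 complex, the actin nucleator that starts new filaments as branches on the side of old ones, was examined through the genes of its subunits in cells sorted from the embryonic mouse sinoatrial node. The members were the 9 genes Arpc1a, Arpc1b, Arpc2, Arpc3, Arpc4, Arpc5, Arpc5l, Actr2 and Actr3, taken by symbol from a deposited table of 12557 genes, and 9 of the 9 were measured, each in 1 row. The complex was chosen on the RPKM values of these same libraries, in which Arpc3 was known to stand low in the mutant, so the values of this contrast are given as a description.

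There were 2 libraries. The Isl1 mutant library came from ICR embryos of the genotype Hcn4-CreERT2; Isl1f/f; Rosa-tdTomato, and the control library from Hcn4-CreERT2; Isl1+/+; Rosa-tdTomato embryos of the same strain, so both carried the recombinase and the reporter. Both received tamoxifen at E10.5, with tissue collected 36 hours later and labelled E12.5. The recombinase is driven by Hcn4, a pacemaker channel gene, which limits the model to cells that use it, and red fluorescent cells were sorted from nodes pooled by genotype after endothelial cells had been removed with CD31 beads. Each library is 1 pool of an unstated number of embryos, so replicate error is unknown and no test was made. Levels are RPKM, reads per length of exon scaled to the depth of the library. The library totals, 119018888 reads for the mutant and 110117186 for the control, were inferred from the values. They are the smallest that fit, so the true totals can be multiples. Unless named otherwise, intervals are exact 95% intervals that treat reads as independent and cover counting error alone. PCR copies of a molecule are not independent, and the intervals leave this out.

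Arp2/3 holds 7 positions. ARP2 and ARP3, encoded by Actr2 and Actr3, resemble actin and form the first subunits of the new branch. ARPC2 and ARPC4 make up the core that grips the older filament, ARPC1 lies where activators of the WASP and WAVE families bind, and ARPC3 and ARPC5 contact the actin-related subunits. ARPC1 and ARPC5 each exist in a pair of forms from separate genes, and ARPC1B is the main ARPC1 form of human blood cells. Branched actin drives membrane protrusion, endocytosis and the build-up of cell junctions.

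Isl1, the LIM-homeodomain transcription factor gene that was removed, served as the check of the genotypes. It stood at 1.52 RPKM in the mutant library and 7.65 RPKM in the control library, a 5.02-fold lower level (interval 4.53 to 5.56). No row of the deposited table lay under 1 RPKM in both libraries, so a gene under 1 RPKM in one library is listed only because it was higher in the other. Such rows numbered 1635 in the mutant library and 472 in the control library. The markers of pacemaker cells, a list that includes Isl1, were lower in the mutant library in 7 of 7 cases, 1 of them listed through the control library alone, with Hcn4 itself at 0.541 RPKM in the mutant library and 1.99 RPKM in the control library. For comparison with these and the next counts, 67.1% of all 12446 symbols measured were lower in the mutant library. Markers of heart muscle were higher in 7 of 8 cases and summed to 17813 RPKM in the mutant library and 12182 RPKM in the control library. Of the markers at 1 RPKM or above in each library, red cell markers were lower in 8 of 8, with sums over the list of 64.0 RPKM in the mutant library and 376 RPKM in the control library, and fibroblast and cushion markers in 10 of 10, with sums of 223 and 510 RPKM for mutant and control. Macrophage and white cell markers, with 14 measured of 19 listed, summed to 18.98 RPKM in the mutant library and 62.4 RPKM in the control library. Of the 14, 10 are in the table through the control library alone and so had to be lower, and the other 4 were lower as well. These 4 ran from Lcp1, 1.10-fold lower, to Laptm5, 7.76-fold lower. Lcp1 had 8.66 RPKM in the mutant library and 9.49 RPKM in the control library, so it weighs heavily in the mutant sum. Endothelial markers, with 7 measured of 8 listed and 3 of them through the control library alone, had sums of 11.5 RPKM in the mutant library and 24.6 RPKM in the control library. In such bulk samples, fewer cells of a type and less RNA per cell cannot be told apart.

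The promoters are shown first for Arpc3, for Arpc2 and Actr3, the most abundant subunit genes, and for Arpc4, the partner of Arpc2 in the core. They are the 250 bases before the RefSeq start of each gene in GRCm38.p6, at chr5:122391628-122391877 on the plus strand for Arpc3, chr1:74236267-74236516 on the plus strand for Arpc2, chr1:125435728-125435977 on the minus strand for Actr3 and chr6:113377863-113378112 on the plus strand for Arpc4. Capitals mark CGGAAG, the core of sites bound by ETS factors, and GCATGCG, the core of sites bound by NRF1, each searched on both strands with overlapping matches kept.

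Arpc3: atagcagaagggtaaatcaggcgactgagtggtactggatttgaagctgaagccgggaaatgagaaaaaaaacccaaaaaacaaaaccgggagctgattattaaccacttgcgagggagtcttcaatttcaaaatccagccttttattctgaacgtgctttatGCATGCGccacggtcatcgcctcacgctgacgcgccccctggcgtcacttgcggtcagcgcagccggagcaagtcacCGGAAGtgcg
Arpc2: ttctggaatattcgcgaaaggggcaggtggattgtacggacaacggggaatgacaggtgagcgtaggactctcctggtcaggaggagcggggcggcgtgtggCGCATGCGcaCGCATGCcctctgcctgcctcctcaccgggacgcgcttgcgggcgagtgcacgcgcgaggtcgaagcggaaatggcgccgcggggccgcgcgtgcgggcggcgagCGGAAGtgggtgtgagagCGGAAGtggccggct
Actr3: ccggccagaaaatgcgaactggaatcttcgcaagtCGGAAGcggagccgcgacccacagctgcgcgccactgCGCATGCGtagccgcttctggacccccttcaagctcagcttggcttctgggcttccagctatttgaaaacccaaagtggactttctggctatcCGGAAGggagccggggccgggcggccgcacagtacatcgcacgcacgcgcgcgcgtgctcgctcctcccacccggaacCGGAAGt
Arpc4: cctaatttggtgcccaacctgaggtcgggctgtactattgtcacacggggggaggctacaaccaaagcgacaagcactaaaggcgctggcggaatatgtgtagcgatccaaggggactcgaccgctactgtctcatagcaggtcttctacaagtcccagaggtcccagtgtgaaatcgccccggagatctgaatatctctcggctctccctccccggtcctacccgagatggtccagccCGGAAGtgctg

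RefSeq promoters were matched for 8 of the 9 members, and Arpc5l is named only. The ETS core occurred in 7 of these 8, against 13.6% of 32851 mouse promoter windows of the same length, and the NRF1 core in 3 of 8, in Arpc2, Arpc3 and Actr3, against 3.02%. Both motifs were chosen after the sequences had been read, and GC content was not matched. The Arpc3 window is the least GC-rich of the 8, at 51.2% with the others reaching 74.4% in Arpc5, and the median of all windows is 52.4%. It holds 0 matches to the GC box GGGCGG, which occurred in 5 of the 8 and in 32.7% of all windows. TAAT, the core that many homeodomain factors read, was found 2 times before Arpc3 and 1 time before Arpc4, and in 54.9% of all windows. A CArG box, the element read by the actin-responsive SRF pathway, was found in the Arpc4 window among the 8 and in 1.47% of all windows. CCAAT occurred in 2 of the 8 and in 33.8% of all windows, and TATAAA in 0 of the 8 and 12.4%. These matches describe the letters only.

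Arpc3 was the subunit that stood apart. Arpc3 (ENSMUSG00000029465, chromosome 5, 122841887 to 122856188, mm9) had 4.84 RPKM in the mutant library, with an interval of 4.25 to 5.48, and 28.2 RPKM in the control library, with an interval of 26.7 to 29.8. The level in the mutant was thus 5.83-fold lower (interval 5.09 to 6.72), or 17.1% of control, a log2 ratio of -2.54. It rested on at least 244 reads in the mutant library and 1317 reads in the control library over at least 424 bases of constitutive exon. These smallest fitting numbers were the lowest of the 9 genes, but the true numbers can be multiples, so the true order is not known. Of the 9 subunits 9 passed the filter of 5 RPKM in either library, Arpc3 through the control library alone. Among the 6343 genes that reached 5 RPKM in either library, its ratio took rank 13 from the lowest, within the lowest 0.205%. By the size rule used here, at least 2-fold on the log2(RPKM + 1) scale, 170 of these genes (2.68%) were lower in the mutant library and 64 (1.01%) were higher, and of the 9 subunits 1 was lower and 0 were higher. Since the contrast chose Arpc3, nothing is read from this share.

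**Figure D1:**
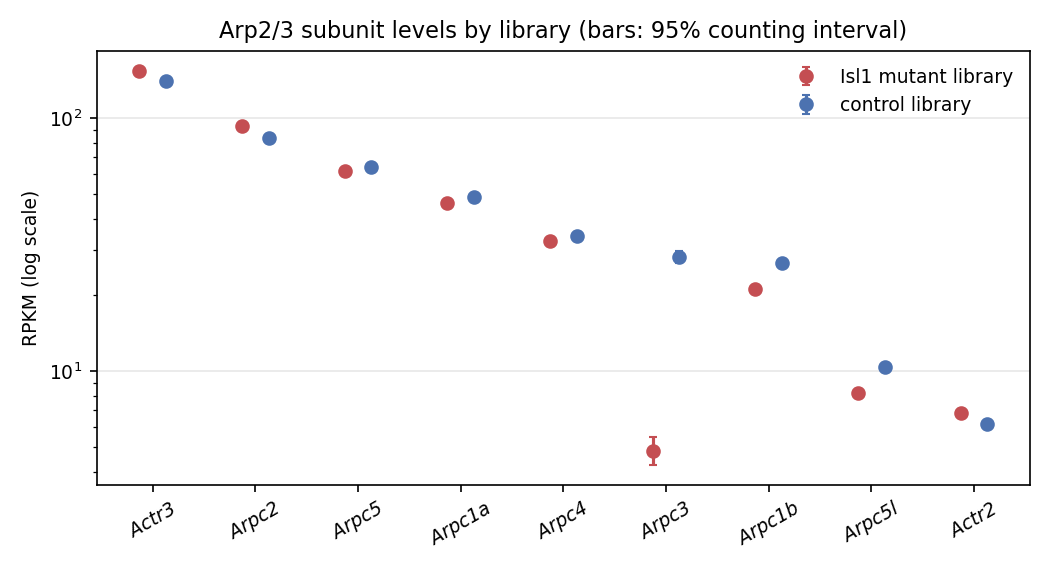
Level of each Arp2/3 subunit gene in RPKM (log axis) in the Isl1 mutant library (red, left of each pair) and the control library (blue, right), ordered by control level, with bars for the 95% counting interval (often smaller than the point). Arpc3 lies at 4.84 RPKM in the mutant library and 28.2 RPKM in the control library, while the points of each other gene lie close together.

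The other 8 subunits lay within 1.5-fold between the libraries, as did 80.7% of the 6343 genes. Of the 8, 3 were higher and 5 lower in the mutant library (38.1% and 61.9% of the 6343 genes), by 1.11-fold at most upward and 1.26-fold at most downward, and their median log2 ratio was -0.07, beside -0.11 for the 6343 genes. Arpc1a, Arpc4 and Arpc5, each lower by 1.06-fold or less, became higher with upper-quartile scaling, which subtracts a shift of -0.095 on the log2 scale, and Arpc5 also with the median of genes at 5 RPKM in both libraries subtracted, a shift of -0.07. Added together they came to 423 RPKM in the mutant library and 414 RPKM in the control library, a ratio of 1.02. Arpc3 lay 2.48 below their median on the log2 scale and 2.21 below the next lowest subunit, Arpc5l. The other subunits therefore did not share the size of the Arpc3 difference in this pair of libraries, each resting on at least 3078 reads per library.

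**Figure D2:**
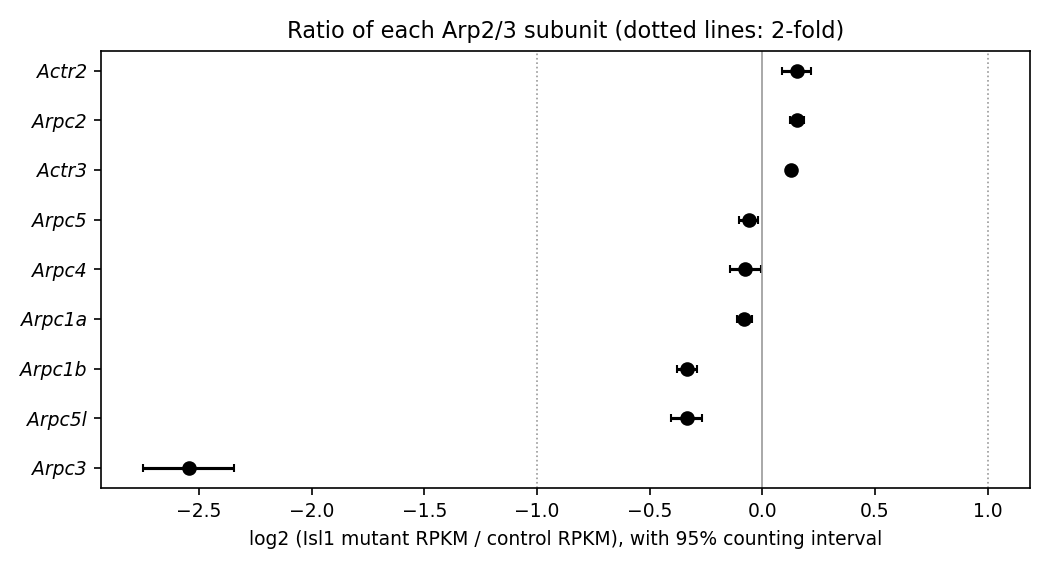
Log2 ratio of Isl1 mutant over control RPKM for each subunit gene, with the 95% counting interval as a bar and dotted lines at 2-fold. Arpc3 lies at -2.54 and the other 8 between -0.34 and 0.15.

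The actin-related subunits were slightly higher in the mutant library. Actr3 (chromosome 1, 127289483 to 127332265), which encodes ARP3, was the most abundant subunit gene in both libraries. It had 153 RPKM in the mutant library and 140.0 RPKM in the control library, 1.09-fold higher (interval 1.08 to 1.11). Actr2 (chromosome 11, 19962307 to 20012916), the gene of its partner ARP2, had 6.86 RPKM in the mutant library and 6.17 RPKM in the control library, 1.11-fold higher (interval 1.06 to 1.16). The 2 partners thus had very unequal levels per length, with Actr3 22.3-fold above Actr2 in the mutant library and 22.7-fold above it in the control library. As deposited, the ratio between them differed by -0.03 on the log2 scale (Woolf interval -0.09 to 0.04). With the median of genes of like level subtracted in 10 level bins, an alternative chosen after seeing the data, the difference was -0.21, outside that interval. Actr2 was counted over at least 5142 bases of exon, the largest of the 9 smallest fitting lengths.

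The core subunits lay on either side of equal levels as deposited, though Arpc4 changes sign with upper-quartile scaling. Arpc2 (chromosome 1, 74283071 to 74314783) had 93.0 RPKM in the mutant library and 83.6 RPKM in the control library, 1.11-fold higher (interval 1.09 to 1.14). Arpc4 (chromosome 6, 113328107 to 113340442), whose protein pairs with ARPC2, had 32.6 RPKM in the mutant library and 34.4 RPKM in the control library, 1.05-fold lower (interval 1.004 to 1.11). Arpc2 therefore exceeded Arpc4 2.85-fold in the mutant library and 2.43-fold in the control library. Set against Arpc3, Arpc2 was 19.2-fold more abundant in the mutant library and 2.96-fold more abundant in the control library.

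For ARPC1 and ARPC5, the less abundant form was lower in the mutant library by more than its partner, and the partners Arpc1a and Arpc5 change sign with upper-quartile scaling. Arpc1a (chromosome 5, 145844699 to 145869630) had 46.3 RPKM in the mutant library and 48.95 RPKM in the control library, 1.06-fold lower (interval 1.03 to 1.08). Arpc1b (chromosome 5, 145875084 to 145891574), which lies directly beside it, had 21.2 RPKM in the mutant library and 26.7 RPKM in the control library, 1.26-fold lower (interval 1.22 to 1.30). Arpc1a made up 68.6% of the summed ARPC1 level in the mutant library and 64.7% in the control library. The change in the ratio of Arpc1a to Arpc1b was 0.25 on the log2 scale (Woolf interval 0.20 to 0.31) and 0.16 with level bins subtracted. Arpc1b was lower alongside the white cell markers, whose sum was 3.29-fold lower in the mutant library, and their part in the Arpc1b value was not tested. Lcp1 among these markers was 1.10-fold lower.

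Arpc5 (chromosome 1, 154613672 to 154622727) had 61.7 RPKM in the mutant library and 64.4 RPKM in the control library, 1.04-fold lower (interval 1.01 to 1.08). Arpc5l (chromosome 2, 38863596 to 38871397), the gene of its second form, had 8.23 RPKM in the mutant library and 10.4 RPKM in the control library, 1.26-fold lower (interval 1.20 to 1.32). Arpc5 held 88.2% of the summed ARPC5 level in the mutant library and 86.1% in the control library. The ratio of Arpc5 to Arpc5l differed by 0.27 on the log2 scale (Woolf interval 0.19 to 0.36) and by 0.093 with level bins subtracted, so its size depends on that setting. Arpc1b and Arpc5l stood at ranks 1820 and 1809 from the lowest ratio among the 6343 genes.

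Actr3b, which encodes a second form of ARP3 and is not among the 9, had 12.7 RPKM in the mutant library and 13.2 RPKM in the control library, a ratio of 0.962 whose interval (0.911 to 1.02) includes 1 and which changes sign with either scaling. With the paralogues summed, ARP3 was the most abundant of the 7 positions in both libraries, at 166 RPKM in the mutant library and 153 RPKM in the control library. ARPC3 was the least abundant position in the mutant library, at 1.10% of the sum over positions, and the second least abundant in the control library, at 6.19%. ARP2 was the least abundant position in the control library, at 1.35%, and made up 1.56% in the mutant library. From the highest to the lowest position the level differed 34.2-fold in the mutant library and 24.8-fold in the control library, so RPKM levels were far from equal in either.

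The order of the 9 genes by level was the same in both libraries once Arpc3 was set aside, running from Actr3 through Arpc2, Arpc5, Arpc1a, Arpc4, Arpc1b and Arpc5l to Actr2. Arpc3 took place 9 of 9 in the mutant library, under Actr2, whose interval of 6.66 to 7.07 RPKM lies above that of Arpc3. In the control library it took place 6 of 9, between Arpc4 and Arpc1b. There the interval of Arpc1b, 26.1 to 27.2 RPKM, overlapped that of Arpc3, while that of Arpc4, 33.2 to 35.6 RPKM, lay above it. Intervals on the smallest fitting reads can be too wide, so the overlap does not settle the order of Arpc3 and Arpc1b.

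**Figure D3:**
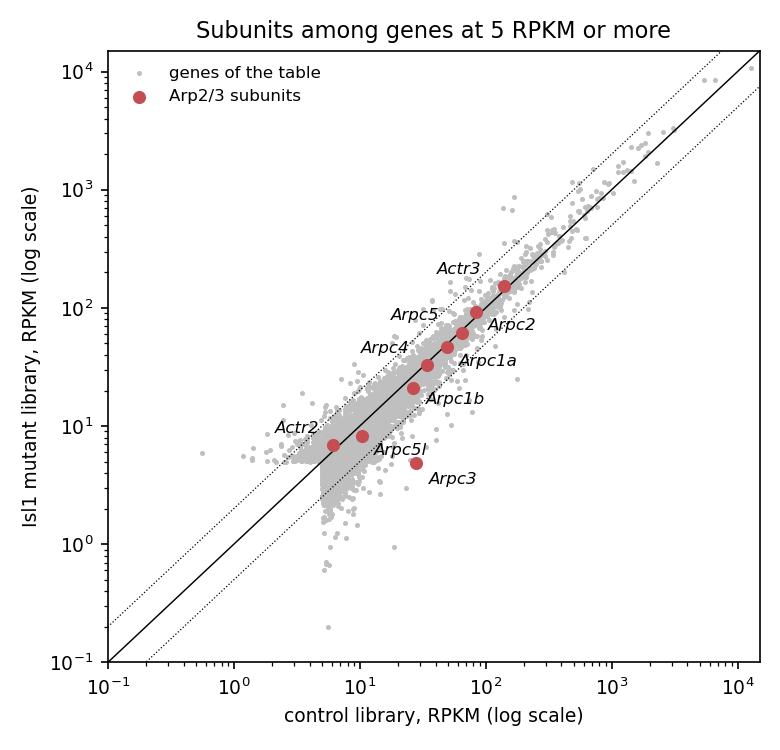
Mutant RPKM against control RPKM (both axes log) for the 6343 genes that reached 5 RPKM in either library (grey) and the Arp2/3 subunit genes (red), with a line for equal levels and dotted lines for 2-fold. Of the red points, 8 lie near the line of equal levels and Arpc3 lies below the 2-fold line.

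The place of Arpc3 among genes of its own level was then described. Of 1238 genes with a control level within 1.5-fold of Arpc3, the median log2 ratio was -0.09 and the central 90% ran from -0.74 to 0.42. Arpc3 and Laptm5, whose protein sits in lysosomes of blood cells, were the 2 genes of this range with a ratio as low as that of Arpc3. Since the contrast chose Arpc3, nothing is read from this place. Of 732 protein-coding genes counted over at most 1000 bases of exon, by the smallest length that gives whole reads, the median log2 ratio was -0.01 and 3.14% were at least 2-fold lower.

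The 5 named protein-coding genes nearest to Arpc3 in the plane of both log2 levels, a likeness over 2 libraries only, included 3 genes of blood cells. Hbb-b2 and Hbb-b1, adult beta globin genes that are nearly identical so that their reads may be divided wrongly, had 5.17 RPKM and 6.71 RPKM in the mutant library and 25.2 RPKM and 33.9 RPKM in the control library. Nrk, a kinase gene, had 4.82 RPKM in the mutant library and 17.8 RPKM in the control library. Aebp1, a gene of a collagen-binding matrix protein, had 5.60 RPKM in the mutant library and 17.9 RPKM in the control library. Laptm5 had 2.99 RPKM in the mutant library and 23.2 RPKM in the control library. Aebp1 and Nrk were 3.20-fold and 3.69-fold lower in the mutant library, less than Arpc3, and Hbb-b2 and Hbb-b1 4.87-fold and 5.05-fold. The summed red cell markers were 5.88-fold lower, and their part in the Arpc3 value was not tested.

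The 3 nearest measured protein-coding genes on each side of Arpc3 did not share its ratio. Their log2 ratios ran from -0.23 to 0.32. Gpn3, a GTPase gene whose end lies 8976 bases before Arpc3, had 10.4 RPKM in the mutant library and 12.3 RPKM in the control library, 1.18-fold lower (interval 1.12 to 1.24). Anapc7, a gene of the anaphase-promoting complex 15514 bases after it, had 17.1 RPKM in the mutant library and 15.0 RPKM in the control library, 1.14-fold higher (interval 1.06 to 1.23). Atp2a2, the gene of the calcium pump SERCA2, had 163 RPKM in the mutant library and 166 RPKM in the control library. Vps29, a retromer gene, had 19.4 RPKM in the mutant library and 18.7 RPKM in the control library, 1500011H22Rik had 24.8 RPKM in each, and Ift81, a gene of cilium transport, had 16.1 RPKM in the mutant library and 12.9 RPKM in the control library.

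Reads shared with other genes could touch some members. Arpc3 overlaps no other gene of the table, and no transcript of another gene in GENCODE M 21 matched its coding transcripts at 95% identity over 200 bases or more. Actr3 had 2 such matches, both processed pseudogenes, and Actr2 and Arpc2 had 1 pseudogene each. Arpc1b had a pseudogene and Pdap1, which overlaps it on the opposite strand by 1937 bases and had 3.35 RPKM in the mutant library and 1.87 RPKM in the control library. Arpc4 overlaps Ttll3 on the same strand by 1189 bases, and Ttll3 had 7.06 RPKM in the mutant library and 7.24 RPKM in the control library. Arpc1a overlaps Kpna7 by 201 bases on the other strand. The sources used here do not say whether counting used strand, and the library kit does not mark it, so reads from these shared stretches cannot be separated.

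The regulators of Arp2/3 were compared next, from lists by function. Genes of the WAVE regulatory complex, which relays Rac signals to Arp2/3 at the cell edge, were lower in 10 of 10 measured of 12 listed, 2 of them in the table through the control library alone, with a median log2 ratio of -0.36. Of the 12446 symbols measured, 67.1% were lower and the median was -0.22. Of the 6 WAVE genes that reached 5 RPKM, 0 passed the 2-fold rule. Rac1, nearly level at 7.33 RPKM in the mutant library and 7.46 RPKM in the control library, becomes higher with either scaling, which leaves 9 lower. Cyfip1, the Rac-binding scaffold of that complex, had 6.87 RPKM in the mutant library and 13.3 RPKM in the control library, 1.93-fold lower (interval 1.87 to 1.99). Abi2 had 7.30 RPKM in the mutant library and 9.13 RPKM in the control library, 1.25-fold lower. Nckap1 and Abi1, both structural subunits, were 1.13-fold and 1.12-fold lower. Wasf1, the gene of a WAVE protein itself, had 0.649 RPKM in the mutant library and 1.30 RPKM in the control library, 2.004-fold lower (interval 1.54 to 2.62), and is one of the 2 listed through the control library.

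Of the WASP family and its partners, 7 of 12 were measured, 6 lower and 1 higher, with a median log2 ratio of -0.27, 1 listed through the control library alone and 0 of the 4 at 5 RPKM past the 2-fold rule, Wasl changing sign with either scaling. Cdc42, the small GTPase that opens N-WASP, had 103 RPKM in the mutant library and 124 RPKM in the control library, 1.20-fold lower (interval 1.18 to 1.21). Trip10, a membrane-curving partner of Cdc42, was the higher one, at 12.5 RPKM in the mutant library and 9.51 RPKM in the control library, while the related Fnbp1l was 1.28-fold lower. The 5 genes of the WASH complex, which activates Arp2/3 on endosomes, were lower in 4 cases and higher in 1, with a median of -0.36. Washc5 had 11.7 RPKM in the mutant library and 15.8 RPKM in the control library, Washc2 had 18.8 RPKM in the mutant library and 24.1 RPKM in the control library, and Washc3 had 5.005 RPKM in the mutant library and 5.79 RPKM in the control library.

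Among other activators and stabilisers of branches, 4 of 7 were measured, 4 of 4 were lower as deposited, 3 with either scaling as Abl2 changes sign, and the median was -0.501. Of the 2 that reached 5 RPKM, 0 passed the 2-fold rule. Cttn, the gene of the branch stabiliser cortactin, had 48.6 RPKM in the mutant library and 54.3 RPKM in the control library, 1.12-fold lower (interval 1.09 to 1.14). Abl1, a tyrosine kinase gene, had 11.998 RPKM in the mutant library and 21.5 RPKM in the control library, 1.79-fold lower (interval 1.57 to 2.06).

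Inhibitors and debranching factors were measured for 7 of 10 genes, 5 lower and 2 higher, with a median of -0.10 and 0 of the 6 at 5 RPKM past the 2-fold rule, Gmfb changing sign with either scaling. Coro1a, the coronin gene of white blood cells, was the lowest of them and lies under 5 RPKM, with 1.002 RPKM in the mutant library and 4.43 RPKM in the control library. It was 4.42-fold lower (interval 3.78 to 5.19), beside white cell markers whose sum was 3.29-fold lower, and their part in it was not tested. Lcp1 among these markers was 1.10-fold lower. The widely expressed coronins Coro1b and Coro1c stood at 37.3 and 21.4 RPKM in the mutant library and at 36.2 and 19.9 RPKM in the control library, 1.03-fold and 1.08-fold higher. Coro7, a coronin of the Golgi, had 7.69 RPKM in the mutant library and 11.2 RPKM in the control library. Arpin, the Arp2/3 inhibitor at the cell edge, had 5.52 RPKM in the mutant library and 5.92 RPKM in the control library, a 1.07-fold lower level whose interval (0.998 to 1.15) reaches past equality.

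**Figure D4:**
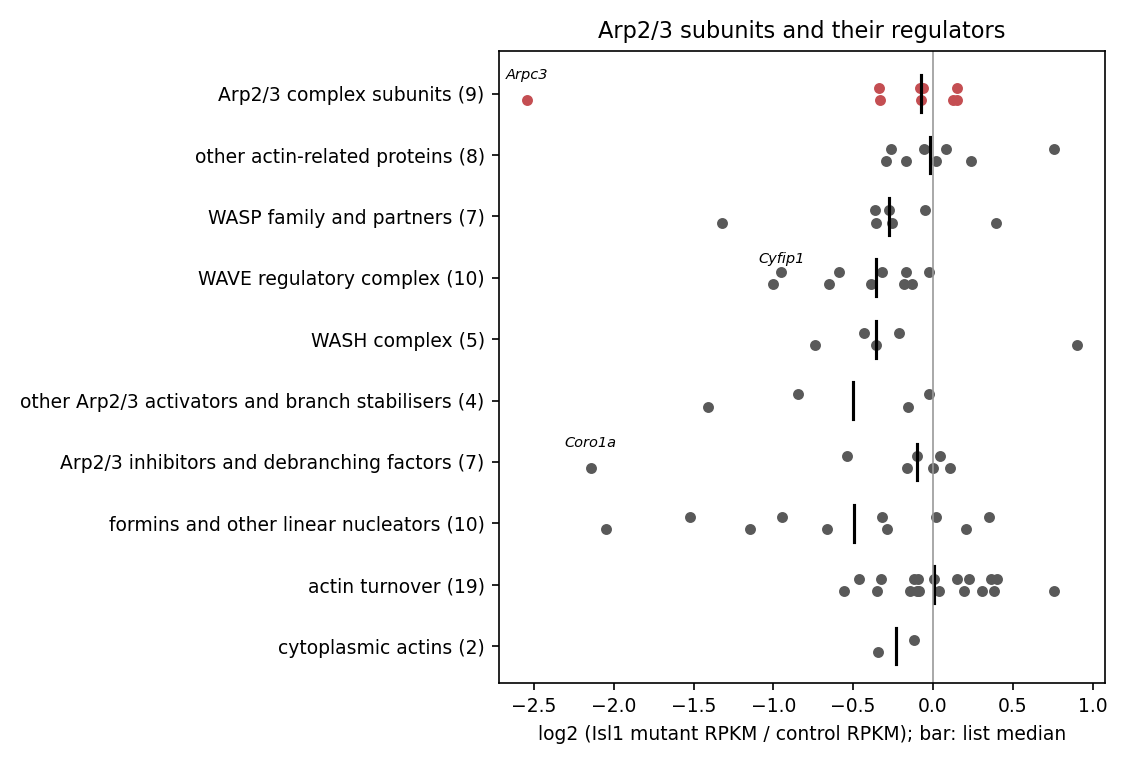
Log2 ratio of Isl1 mutant over control RPKM for each measured gene that reached 1 RPKM in either library, by list, with the number of genes in brackets and a bar at the list median. Listed through the control library alone are 5 formin, 2 WAVE and 1 WASP family points. Of the other actin-related protein genes, 1 is in the table through the mutant library alone. Arpc3 at -2.54 is the lowest point shown, Coro1a lies at -2.14, and the 10 WAVE genes lie below 0 as deposited, Rac1 changing sign with either scaling.

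Genes of actin turnover, with 19 of 19 measured, had a median log2 ratio of 0.01, 10 higher and 9 lower and 0 of the 18 at 5 RPKM past the 2-fold rule, Cfl1 and Capzb changing sign with upper-quartile scaling. Cap1 and Cap2, the genes of the cyclase-associated proteins that recycle actin monomers, went opposite ways. Cap1 had 5.55 RPKM in the mutant library and 8.15 RPKM in the control library, 1.47-fold lower (interval 1.37 to 1.57). Cap2, the form of muscle, had 119 RPKM in the mutant library and 91.2 RPKM in the control library, 1.30-fold higher (interval 1.28 to 1.32). Gsn, the gene of the severing protein gelsolin, had 96.4 RPKM in the mutant library and 133 RPKM in the control library. Tmsb10, an actin-sequestering thymosin gene, had 8.89 RPKM in the mutant library and 6.74 RPKM in the control library. The cytoplasmic actin genes Actb and Actg1 were 1.09-fold and 1.27-fold lower in the mutant library, where they stood at 935 and 1196 RPKM, against 1017 and 1519 RPKM in the control library.

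Formins and other nucleators of straight filaments were measured for 10 of 16 genes, 5 of them through the control library alone. Of the 5 at 1 RPKM or above in each library, 2 were lower and 3 higher, and 1 of the 10, Cobl, reached 5 RPKM. Of other actin-related protein genes, 8 of 9 were measured, 4 higher and 4 lower, with a median of -0.02. Of the 4 higher, 1 is in the table through the mutant library alone and so had to be higher. Actr1a and Actr1b, which encode both forms of the dynactin filament protein, had 42.7 and 66.7 RPKM in the mutant library and 51.2 and 56.5 RPKM in the control library. Actr6 and Actl6a, genes of chromatin remodelling complexes, were 1.22-fold and 1.13-fold lower.

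Other multi-subunit complexes were set beside Arp2/3 to show how far a single subunit gene lay from its partners. In 8 such complexes with 59 measured members, the member farthest from the median of the others lay between -0.46 and 1.15 from it on the log2 scale, beside -2.48 for Arpc3. Arpc3 was chosen for its low ratio in these libraries, so nothing is read from this contrast. The WASH and WAVE lists were not among the 8. Their farthest members, Washc1 at 1.30 and Wasf1 at -0.68, lay outside the span of the 8 on the high and the low side respectively. Both were under 5 RPKM in each library. Of the 59, 1 was past the 2-fold rule, Copg2, a coat protein gene of the COPI complex. Copg2 had 151 RPKM in the mutant library and 68.9 RPKM in the control library, 2.20-fold higher (interval 2.17 to 2.23). In the chaperonin CCT, with 8 of 8 genes measured, the farthest was Cct4 at -0.27, and in dynactin it was Dctn6 at 0.35. In the COP9 signalosome it was Gps1 at -0.35, in prefoldin Pfdn1 at 0.39, in the AP-2 adaptor Ap2m1 at -0.45, in the exocyst Exoc3 at 0.63 and in the retromer group Snx2 at -0.46. The exocyst genes as a list had a median of -0.52.

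**Figure D5:**
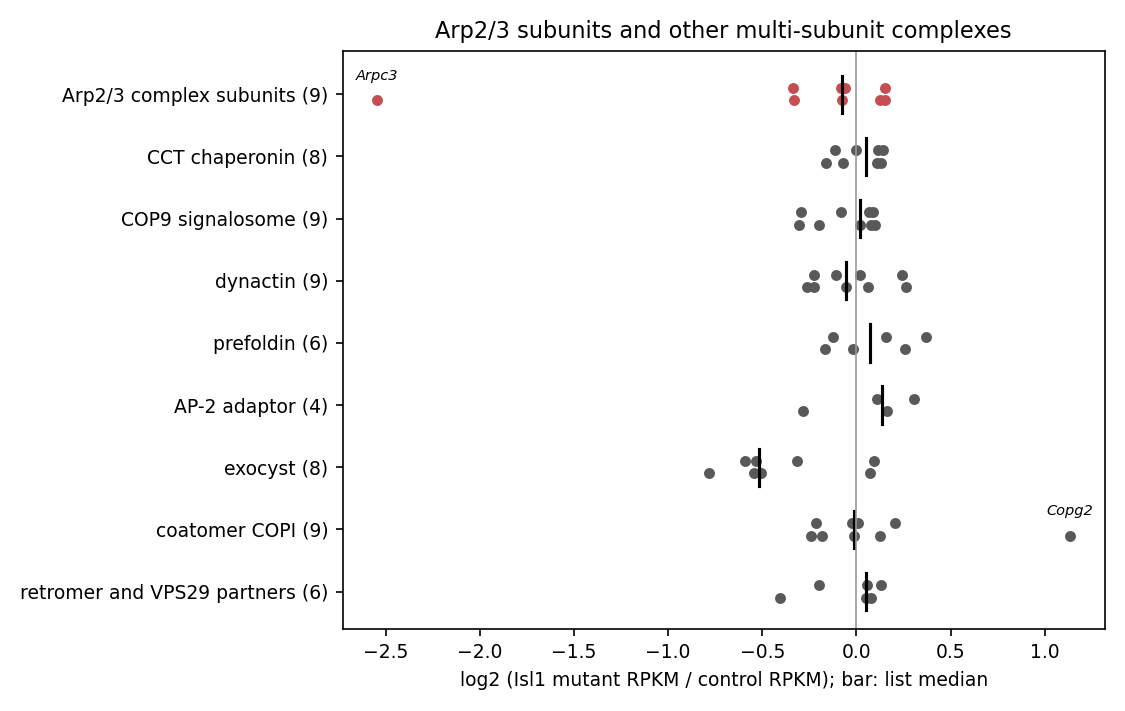
Log2 ratio of Isl1 mutant over control RPKM for the measured members of Arp2/3 (red) and 8 other complexes (grey), with the number of genes in brackets and a bar at each median. Arpc3 at -2.54 and Copg2 at 1.14 lie outside the span of the other points.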

How the data were processed

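Per the submitters' processing notes, Trim Galore, FastQC, TopHat2 and Bowtie2 were used with the genome mm9, and no version is stated. The deposited table gives 1 value per gene and library over constitutive exons, per the file headers, and no source used here names the tool behind the table. No unit is named, so RPKM was inferred from the steps of the deposited values. Value, length and library total gave whole reads, within 0.01, for 276 of 284 small RNA genes in the mutant library. In the control library they did so for 284. The library totals were taken as the smallest that made most of these same genes whole, so this match was built in and does not check them. The log2 fold change that the authors deposited equals the log2 ratio of the RPKM values within 1.89e-07, and their signed fold score was not used.

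Whole reads were taken as the smallest numbers, within 0.001, that fit both values at a whole exon length (12456 rows, 99.2%), and the true numbers can be multiples of these. Where they are, the counting intervals given are too wide for counting error, so an interval that includes equality does not show equal levels. Ratio intervals are conditional binomial (Clopper-Pearson), level intervals exact Poisson, and intervals of paralogue ratios Woolf. The recovery was run on simulated Poisson reads for 1500 genes of this comparison, where 99.7% of recovered reads divided the true ones. Any small divisor meets that condition. Intervals built on the true simulated reads held the true fold in 95.7%, and intervals built on recovered reads were not tested. For a symbol with several rows the one with the highest mean was kept. A gene counted as different at 2-fold or more on the log2(RPKM + 1) scale with 5 RPKM in at least 1 library, while list counts and medians use the 1 RPKM in either library that every row of the table reaches.

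Named from each list were members past 2-fold with that pseudocount and up to 4 with the largest ratio at 5 RPKM in both libraries. Actr3b, Hcn4, Ttll3, Pdap1, Kpna7, Cobl, Rac1, Wasf1, Wasl, Abl2, Gmfb, Cfl1 and Capzb are outside that rule and were chosen after their values were seen, while of the other complexes the farthest member is named and marker lists are given by their sums. Of the white cell list, Lcp1 and Laptm5 are named as the ends of the range at 1 RPKM in each library, also after their values were seen. The members and lists were chosen with earlier results of these data known. Promoters are from RefSeq (GRCm38.p6), used for sequence only, and copies were searched with blastn in GENCODE M 21 transcripts. Alternatives were other pseudocounts, scalings, filters, thresholds and the mean. Python 3.11.15, numpy 2.4.6, pandas 2.3.3 and scipy 1.17.1 were used.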

Additional observations from a re-analysis of the deposited data

How the results depend on the processing

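The Arpc3 log2 ratio of -2.54 became -2.32 with a pseudocount of 1 and -1.76 with a pseudocount of 5, and its distance from the median of the other subunits, -2.48, became -2.26 and -1.69. The scalings moved the ratio to -2.47 and -2.45, and level bins moved the ratio to -2.42 and the distance to -2.34, each by less than the counting interval. The scalings subtract the same amount from every gene, so they cannot move the distance. The median of the other 8 subunits changed sign, to 0.00489 with the median of genes at 5 RPKM in both libraries subtracted and 0.0271 with upper-quartile scaling, as did Arpc5 under both scalings and Arpc1a and Arpc4 under the second. In all 6 alternatives of the size rule, 1 subunit was lower and 0 were higher. Over all genes, the 170 lower and 64 higher became 281 and 84 without a pseudocount, 36 and 36 with a pseudocount of 5, 489 and 139 without a filter, 100 and 87 with level bins subtracted, 134 and 76 with the median of genes at 5 RPKM in both libraries subtracted, and 750 and 239 at 1.5-fold. No paired analysis was possible because each genotype has 1 library, and for the same reason no library could be left out. Arpc3 rests on at least 244 mutant reads, with counting error of about 0.203 either way on the log2 scale. Level bins moved 3 of 6 ratios between subunit genes out of their counting intervals.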
